A study of Mus musculus with 5 samples.

Results

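The inhibitor of DNA binding genes Id1, Id2, Id3 and Id4 were followed in sorted mouse pigment cells. The 4 genes were taken by symbol from a table of 24100 genes, and all 4 passed the filter on low counts that left 16953 genes for testing. Id proteins carry a helix-loop-helix (HLH) domain but lack the basic region that touches DNA. They pair with the E proteins, which are basic HLH (bHLH) activators, and keep them from binding the E-box of target genes. Bone morphogenetic proteins (BMPs) signal through receptor kinases that activate SMAD1, SMAD5 and SMAD9. With SMAD4 these enter the nucleus, and the Id genes are among their best known direct targets. In many lineages Id proteins are known for holding progenitor cells back from differentiation.

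RNA was sequenced from 2 groups of cells from the back skin of male mice of a mixed CD1 and C57Bl6J background. The first group, quiescent melanocyte stem cells (McSC), held 2 libraries from mice of postnatal day 60 or 62, whose follicles were in their second telogen, the resting phase of the hair cycle. They are called the stem cells below. Each of them pooled cells of 4 males. The second group, melanocytes, held 3 libraries from mice of postnatal day 10 in full anagen, the growth phase, with cells of 3, 2 and 4 males pooled in replicates 1 to 3. The quiescent McSC came from mice with a Dct-eGFP reporter, and the melanocytes from mice with Dct-EGFP and a Lef1-RFP reporter. Both gates took green cells with medium to low integrin α6 that were negative for CD31, CD45, CD140a, Sca1 and CD34, and the melanocyte gate also required red fluorescence and c-Kit. The reporters are driven by Dct, a pigment lineage gene, and Lef1, a transcription factor gene of the WNT pathway that is also active in the hair matrix. The melanocyte gate thus rests on both promoters, and the stem cell gate on that of Dct. Age, hair cycle stage, reporters and gate all changed together between the groups and cannot be told apart.

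Total counts ranged from 17512381 to 124530834 per library. All 8 melanocyte lineage markers examined (Dct, Tyr, Tyrp1, Pmel, Mlana, Sox10, Mitf and Kit) were present in every library. Their summed level was 19060 and 20300 CPM (counts scaled to library size) in the stem cells, and 2996, 17600 and 19160 CPM in melanocyte replicates 1 to 3, so melanocyte replicate 1 stood apart. Of the 8 markers, 3 (Mitf, Kit and Sox10) were higher in the stem cells and the other 5 were not called. Mitf, the master regulator gene of the lineage, stood at 1105 CPM on average in the stem cells and 101 CPM in melanocytes. Of all tested genes, 55.4% passed the test (adjusted p under 0.05) between the groups, 29.1% higher in melanocytes and 26.2% higher in the stem cells. The melanocyte libraries also held more RNA of some other skin cells, though not of all (below). All 11 tested hair matrix and shaft markers were higher there (summed 16.1 to 41.9 CPM in the stem cells against 3153 to 4771 CPM), with Krt34 at 0 in the stem cells. All 9 fibroblast and dermal papilla markers (12.3 to 42.7 against 1888 to 5398 CPM) and all 6 muscle and pericyte markers (5.20 to 5.29 against 112 to 244 CPM) were higher as well, with no other marker of these 3 lists at 0 in a whole group. In bulk samples like these, fewer cells of a type and less RNA per cell cannot be told apart.

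The 4 genes lie on 4 chromosomes (build GRCm38, that is mm10; RefSeq coordinates). Id1 spans positions 152736251 to 152737410 of chromosome 2, Id2 spans 25093799 to 25096092 of chromosome 12 on the minus strand, Id3 spans 136143822 to 136145392 of chromosome 4, and Id4 spans 48261116 to 48266028 of chromosome 13. All are short genes, with 2 exons in the principal transcript of Id1 and 3 exons in that of Id2, Id3 and Id4. No other GENCODE gene overlaps Id1, Id2 or Id3. Id4 is overlapped on the other strand by 2 noncoding genes, of which A330033J07Rik was tested and read at most 3.50 CPM in any library, while the counts of Id4 cannot be divided by strand.

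RefSeq promoter windows matched Id2, Id3 and Id4, and the 250 bases before the RefSeq start of each were searched on both strands for 6 short motifs. The stretches around the matches to SMAD motifs are shown because the Id genes are textbook SMAD targets. Capitals mark GGCGCC, the GC-rich element bound by SMAD1 and SMAD5, or CAGAC, the SMAD4 box (GTCTG on the other strand).
Id2, chr12:25096306-25096335, minus strand: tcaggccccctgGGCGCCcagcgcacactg
Id4, chr13:48260956-48260985, plus strand: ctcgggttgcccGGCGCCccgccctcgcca
Id3, chr4:136143643-136143672, plus strand: tgtcctcggcgtCAGACcagcctaaggaag
Id3, chr4:136143742-136143771, plus strand: ggacccttggcgGTCTGttttgaataaggg

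Id2 and Id4 each held 1 match to GGCGCC and none to CAGAC, whereas Id3 held 2 matches to CAGAC and none to GGCGCC. Of 32851 promoter windows of the same length, 9.59% held GGCGCC and 42.2% held CAGAC. The CCAAT box (33.8% of windows) matched 3 times in Id2, 2 times in Id4 and not in Id3. The CRE core TGACG (17.8%) matched once in Id3, where it overlaps the upstream CAGAC match, and once in Id4, and the E-box CANNTG (66.2%) once in Id2, while TATAAA (12.4%) matched in none of the 3. The windows were rich in G and C, at 62.8% in Id2 and Id3 and 75.6% in Id4, against a median of 52.4% over all windows. In GENCODE the Id3 gene starts at 136143497 and the Id2 gene, on the minus strand, at 25097140. Both lie before the RefSeq start, so these windows fall inside the GENCODE gene. A match describes these letters only.

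The members of the family did not all differ in the same direction. Id1 was 2.05-fold higher in melanocytes. Id3 and Id4 were 1.81-fold and 1.88-fold higher in the stem cells. Id2 did not pass the test. The groups did not overlap for any of the 4 genes, as for 74.5% of all tested genes, and 3 of the 4 were called, against 55.4% of all tested genes. Toward melanocytes 1 of the 4 was called, against 29.1% of all tested genes, and toward the stem cells 2 of the 4, against 26.2%.

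Id1, the family member most often used as a readout of BMP signaling, stood at 65.6 and 67.5 CPM in stem cell replicates 1 and 2. In melanocyte replicates 1 to 3 it stood at 112, 166 and 130.5 CPM. The quiescent libraries lay almost together and below every melanocyte library. The means were 66.5 ± 1.31 CPM (SD, n = 2) and 136 ± 27.4 CPM (SD, n = 3), a log2 fold change of 1.03 ± 0.18 SE (edgeR adjusted p = 0.00414). Id1 was called in each of the 16 alternatives run, including the fits without any 1 library (log2 fold change 0.84 to 1.16).

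Id2, which besides E proteins can bind the retinoblastoma protein, stood at 131.5 and 125 CPM in the stem cells. In melanocytes it stood at 135, 291 and 263 CPM. Melanocyte replicate 1 was close to the quiescent libraries, and the other two melanocyte libraries were far above them. The means were 128.0 ± 4.95 CPM (SD, n = 2) and 229 ± 83.2 CPM (SD, n = 3), and the log2 fold change was 0.84 ± 0.33 SE with a 95% interval of 0.05 to 1.64 (edgeR adjusted p = 0.0698). Without melanocyte replicate 1 the log2 fold change was 1.12 and passed the test (edgeR adjusted p = 0.00035). In that library the lineage markers named above were also lowest (2996 CPM) and the fibroblast markers highest (5398 CPM), and their part in the Id2 value was not tested.

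Id3, a target that BMP induces together with Id1 in many cells, had the highest level per kilobase of the family in the stem cells (below). It stood at 284 and 474 CPM there, and at 177, 234 and 216 CPM in melanocytes. Stem cell replicate 2 was far above all others, and replicate 1 stood closer to the highest melanocyte library than to replicate 2. The means were 379 ± 135 CPM (SD, n = 2) and 209 ± 29.4 CPM (SD, n = 3), a log2 fold change of -0.86 ± 0.24 SE (edgeR adjusted p = 0.025). Without stem cell replicate 2 the log2 fold change was -0.44 and the call was lost (edgeR adjusted p = 0.162), and without melanocyte replicate 3 it was lost as well (adjusted p = 0.0586).

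Id4, which in some settings opposes the other Id proteins, had the lowest level per kilobase of the family (below). It stood at 43.9 and 50.1 CPM in the stem cells, and at 22.0, 21.2 and 31.9 CPM in melanocytes. Both quiescent libraries were above every melanocyte library. The means were 47.0 ± 4.40 CPM (SD, n = 2) and 25.1 ± 5.95 CPM (SD, n = 3), a log2 fold change of -0.91 ± 0.21 SE (edgeR adjusted p = 0.011). The call was lost without stem cell replicate 2 (-0.81, adjusted p = 0.0789). The lowest count behind any of these values was 597, for Id4 in melanocyte replicate 3, where counting error alone amounts to 4.09%, against a coefficient of variation of 23.75% between the melanocyte libraries. For Id1 in the stem cells the counting errors of 1.56% and 1.15% were close to the coefficient of variation of 1.98%.

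**Figure D1:**
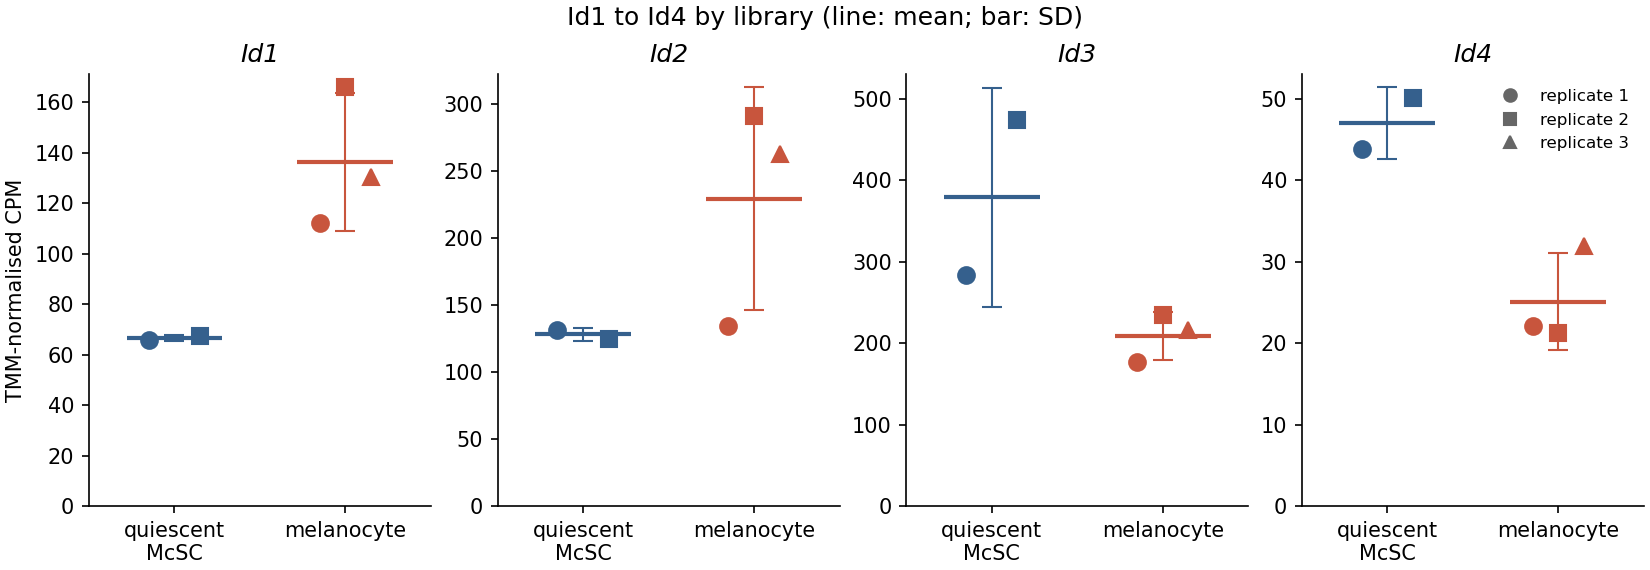
TMM-normalised CPM (y axis) of Id1, Id2, Id3 and Id4 in the 2 quiescent McSC and 3 melanocyte libraries, one panel per gene with its own axis from 0. Points are libraries with the shape giving the replicate, lines are means and bars are SD; Id1 lies higher in melanocytes, Id3 and Id4 lie higher in the stem cells, and Id2 of melanocyte replicate 1 (135 CPM) lies beside the quiescent libraries.

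Immediate early genes, which respond within minutes to stress or growth signals and to tissue dissociation, were higher in the same libraries as Id3 and Id4. All 14 examined were higher in the stem cells, against 26.2% of all tested genes, and none was at 0 in either group. Their summed level was 28640 and 45020 CPM in stem cell replicates 1 and 2, and 2756 to 3037 CPM in melanocytes. Replicate 2, the higher library for these genes, was also the higher library for Id3 (474 CPM). The part of these genes in the Id3 and Id4 differences was not tested.

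Several marker lists of other cells were higher in the same libraries as Id1, and others were not. The counts below stand against 29.1% of all tested genes called toward melanocytes and 26.2% toward the stem cells. Endothelial cells are a known site of Id1 and Id3 expression. Of 8 endothelial markers, 7 were higher in melanocytes and 1, Esam, in the stem cells. Their summed level was 9.83 and 12.4 CPM in the stem cells and 24.1 to 52.6 CPM in melanocytes. Esam alone stood at 8.13 and 10.5 CPM in the stem cells and 2.67 to 4.17 CPM in melanocytes. Cldn5 was at 0 in the stem cells. Of 10 keratinocyte markers 5 were higher in melanocytes and 4 in the stem cells (3109 to 4256 against 3711 to 5108 CPM). The 4 were Krt10 (mean 959 CPM in the stem cells against 40.6 in melanocytes), Krt1 (262 against 12.7), Krtdap (148 against 4.59) and Krt15 (446 against 114). The 5 were Krt5, Trp63, Dsp, Sfn and Itgb4, with the largest fold difference for Trp63 (83.6 against 605 CPM). Of 7 immune markers 3 were higher in melanocytes and 1 in the stem cells (14.6 to 23.6 against 28.01 to 48.1 CPM). Cd74, which was not called, made up most of the stem cell sums, at 22.2 and 12.4 CPM. Of 6 Schwann cell markers 2 were higher in melanocytes and 3 in the stem cells (838 to 1063 against 192 to 250 CPM). All 10 proliferation genes were higher in melanocytes (46.5 to 96.3 against 2504 to 2578 CPM). No marker of these 4 lists was at 0 in a whole group. Together with the hair matrix, fibroblast and muscle markers given above, their part in the Id differences was not tested.

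The ratio of 2 genes within a library does not depend on how libraries are scaled to each other, so the 6 pairwise ratios are given as well. For Id1 to Id3 the log2 ratio of counts was -2.11 and -2.81 in the stem cells and -0.66, -0.50 and -0.73 in melanocytes. Each quiescent library thus held far less Id1 relative to Id3 than any melanocyte library. The mean ratio was 1.84 higher in melanocytes on the log2 scale, or 1.49 without stem cell replicate 2 and 2.19 without stem cell replicate 1. The Id1 to Id4 ratio was 0.58 and 0.43 in the stem cells and 2.35, 2.97 and 2.03 in melanocytes, a mean difference of 1.94. The ratios of Id2 to Id3 and of Id2 to Id4 were higher in melanocytes by 1.59 and 1.69, again with no overlap of the groups.

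For the other two ratios the groups overlapped. The Id1 to Id2 ratio was -1.003 and -0.88 in the stem cells and -0.26, -0.81 and -1.01 in melanocytes (mean difference 0.25). The Id3 to Id4 ratio was 2.69 and 3.24 in the stem cells and 3.00, 3.46 and 2.76 in melanocytes (mean difference 0.11). The separation of the 4 ratios above follows from the CPM values, which lay apart in opposite directions, and is no further evidence. An exact permutation test of 2 against 3 libraries cannot give a p under 0.1, so the ratios are given without a test.

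**Figure D2:**
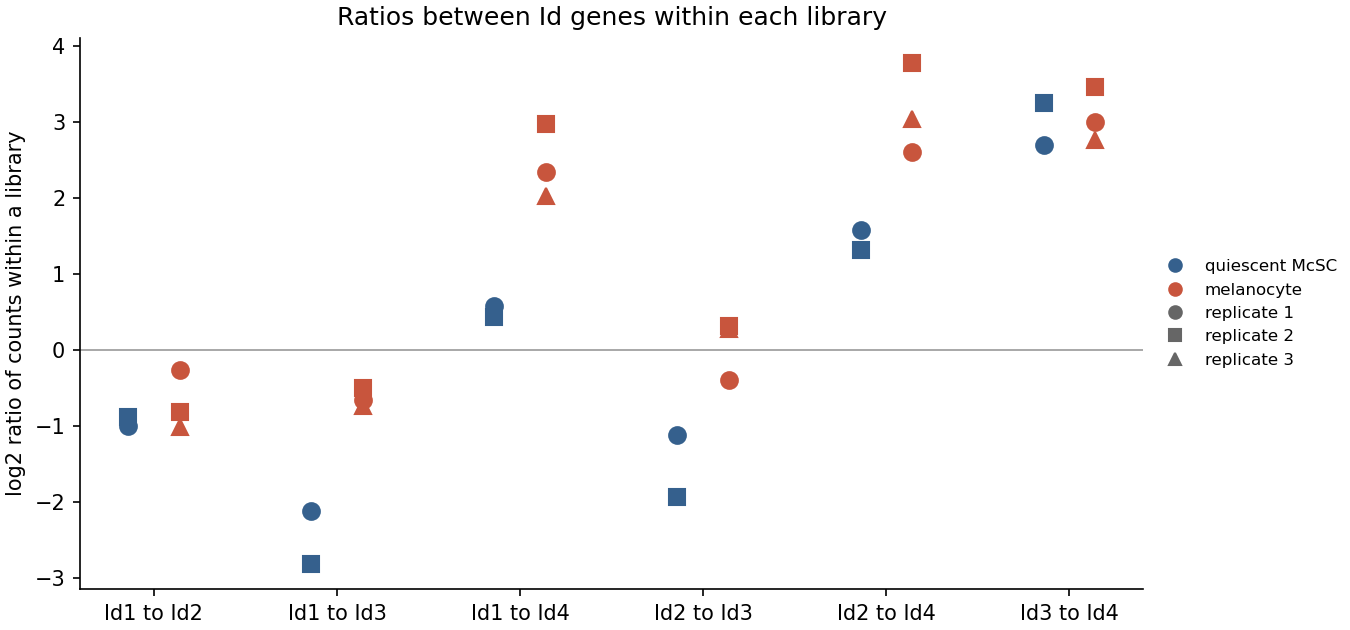
Log2 ratio of the counts of 2 Id genes within a library (y axis) for the 6 pairs of Id1 to Id4 (x axis). Points are the 5 libraries, coloured by group and shaped by replicate; the groups are apart for the 4 ratios of Id1 or Id2 to Id3 or Id4, and overlap for Id1 to Id2 and Id3 to Id4.

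Summed over the family, the groups overlapped. The 4 genes together took 525 and 716 CPM in the stem cells, and 446, 712 and 642 CPM in melanocyte replicates 1 to 3. Summed per kilobase of the principal transcript the values were 407 and 554 against 370.1, 595 and 524 CPM per kilobase. The makeup of that sum differed. Per kilobase of the principal transcript, Id3 made up 54.5% and 66.9% of the family in the stem cells, and 37.4%, 30.8% and 32.3% in melanocytes. Id1 made up 17.2% and 13.0% in the stem cells and 32.5%, 29.9% and 26.6% in melanocytes. The share of Id3 was thus lower, and that of Id1 higher, in each melanocyte library than in either quiescent one. With the length of all annotated exons in place of the principal transcript the shares of Id3 were 64.6% and 75.2% against 46.7%, 40.6% and 42.5%, and the groups were apart in the same way.

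The order of the levels was firm at its ends in the stem cells. Per kilobase of the principal transcript, Id3 stood highest there (297 ± 105 CPM per kilobase, SD, n = 2), followed by Id2 (101 ± 3.89), Id1 (71.2 ± 1.41) and Id4 (12.2 ± 1.14). No neighbours in this order overlapped, but Id2 and Id1 changed places when the length of all annotated exons was used. In melanocytes Id2 (181 ± 65.5 CPM per kilobase, SD, n = 3), Id3 (164 ± 23.0) and Id1 (146 ± 29.3) overlapped between libraries, and Id4 was lowest at 6.51 ± 1.55. Within each melanocyte library Id3 stood above Id1 (138 against 120, 183 against 178 and 169 against 140 CPM per kilobase in replicates 1 to 3). Id2 stood below both in replicate 1 and above both in replicates 2 and 3, so it had no fixed place. With all annotated exons Id3 was highest in each melanocyte library. Id4 was the lowest of the 4 in every library under both lengths.

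Across the 5 libraries the 3 tested genes most like each Id gene were found by Pearson correlation of log2 CPM among 8486 genes of at least 20 CPM. A coefficient over 0.95 was reached by 1057 of these genes with Id1, 124 with Id2, 68 with Id3 and 321 with Id4. Likeness over 5 libraries in 2 groups is a description with no test. For Id1 these were Tsnax, which encodes a partner of translin (r = 0.999), Ints9, a subunit of the Integrator complex, and Psme3ip1 (both r = 0.998). For Id2 they were Washc5, a WASH complex subunit, Pex2, which serves peroxisome assembly (both r = 0.998), and Arl6ip1 (r = 0.997). For Id3 they were Ccdc22 (r = 0.997), Wasf2, a regulator of actin (r = 0.9965), and Cited2, a transcriptional cofactor gene (r = 0.9955). For Id4 they were Dgat1, an enzyme of triglyceride synthesis (r = 0.998), Sgsm3 (r = 0.9975) and the zinc finger gene Zfp729a (r = 0.997). The likeness is in shape and not in size. Tsnax read 90.3 and 90.5 CPM in the stem cells and 105 to 119 CPM in melanocytes, a far smaller difference than that of Id1. The group difference and the shared libraries enter all of these coefficients.

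The genes of the E proteins, the main partners of the Id proteins, differed in both directions. All 3 were called, against 55.4% of all tested genes. Tcf3, which encodes the E2A proteins, stood at 66.3 and 77.7 CPM in the stem cells and 177, 131 and 170 CPM in melanocytes (log2 fold change 1.14 ± 0.17 SE, edgeR adjusted p = 0.00214). Tcf4, which encodes E2-2, stood at 194 and 184 CPM in the stem cells and 107, 118 and 101 CPM in melanocytes (-0.80 ± 0.11, adjusted p = 0.0018). Tcf12, which encodes HEB, stood at 326 and 294 CPM in the stem cells and 148, 190 and 176 CPM in melanocytes (-0.86 ± 0.15, adjusted p = 0.00364). No group overlapped another for any of the 3, and all 3 calls, 1 toward melanocytes and 2 toward the stem cells, were made in each of the 16 alternatives. Tcf3 thus differed in the direction of Id1, and Tcf4 and Tcf12 in that of Id3 and Id4.

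E proteins pair with tissue-restricted bHLH factors to bind DNA. Of 14 genes for such factors, 9 had enough counts to be tested, and of these 4 were higher in melanocytes, 1, Atoh8, was higher in the stem cells and 4 were not called (median log2 fold change 1.85, against 0.03 for all tested genes). The 5 calls among 9 genes are near the 55.4% of all tested genes. Atoh8 (-1.09, edgeR adjusted p = 0.0479) was called in 8 of the 16 alternatives, and without stem cell replicate 2 its log2 fold change was -0.56 (adjusted p = 0.352). All were at low levels, at most 10.1 CPM in any library. Lyl1, known from blood and endothelial cells, stood at 0.0544 ± 0.0138 CPM in the stem cells and 1.35 ± 0.511 CPM in melanocytes. Twist2, a dermal factor, stood at 0.0785 ± 0.0478 against 1.72 ± 0.722 CPM. Tcf15 had no count in the stem cells and 23 counts in melanocytes, at least 10.5-fold higher against a floor of 3 counts over the group. Tal1, at 0.518 CPM or less in every library, was the other gene higher in melanocytes (log2 fold change 1.85, edgeR adjusted p = 0.047). Its call was lost in several alternatives, among them DESeq2 (adjusted p = 0.0846) and edgeR without melanocyte replicate 1 (adjusted p = 0.069). Endothelial (9.83 to 12.4 against 24.1 to 52.6 CPM) and fibroblast markers (12.3 to 42.7 against 1888 to 5398 CPM) were higher in the same libraries, and their part was not tested. Most of the endothelial sum in the stem cells was Esam, the marker that was higher there. The number of called genes fell from 5 to 2 without melanocyte replicate 2, where 8248 of 16352 tested genes were called. It was 0 with a filter of 5 CPM in 2 libraries.

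Of 5 other partners and regulators of Id proteins, 3 were higher in melanocytes, 1 was higher in the stem cells and Rb1 was not called (median 1.24), against 29.1% and 26.2% of all tested genes in these directions. The pocket protein genes Rbl1 and Rbl2 differed in opposite directions. Rbl1 stood at 15.8 and 16.0 CPM in the stem cells and 128 to 134 CPM in melanocytes (log2 fold change 3.04 ± 0.10 SE, edgeR adjusted p = 3.65e-05). Rbl2 stood at 246 and 228 CPM in the stem cells and 40.2 to 45.4 CPM in melanocytes (-2.46 ± 0.11, adjusted p = 5.03e-05). Usp1, which encodes a deubiquitinase that stabilises Id proteins, stood at 58.0 and 53.2 CPM in the stem cells and 167 to 199 CPM in melanocytes (1.75 ± 0.13, adjusted p = 0.000192). Fzr1, an activator of the ubiquitin ligase that marks Id proteins for degradation, was the third gene higher in melanocytes (1.24 ± 0.14). Proliferation genes (46.5 to 96.3 against 2504 to 2578 CPM) were higher in the same libraries, and their part was not tested.

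Genes of cyclin-dependent kinase inhibitors are known targets of E proteins that Id proteins oppose. Of 5 such genes 2 were higher in the stem cells, 2 were higher in melanocytes and Cdkn1b was not called (median -0.26), against 26.2% and 29.1% of all tested genes. Cdkn1a, which encodes p21, stood at 503 and 651 CPM in the stem cells and 150, 153 and 112 CPM in melanocytes (log2 fold change -2.06 ± 0.19 SE, edgeR adjusted p = 0.000424). Cdkn1c, which encodes p57, stood at 22.1 ± 1.49 CPM in the stem cells and 10.8 ± 2.46 CPM in melanocytes (-1.03 ± 0.23), and its call was lost without stem cell replicate 2 (adjusted p = 0.0702). Cdkn2b, which encodes p15, stood at 1.82 ± 1.03 CPM in the stem cells and 10.5 ± 3.19 CPM in melanocytes (2.53 ± 0.48). Cdkn2a, at 0.222 CPM or less in every library, was the other gene higher in melanocytes, and it was not called without stem cell replicate 2 (adjusted p = 0.116).

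The genes that carry the BMP signal to the Id genes were called in both directions. Of 11 BMP receptor and SMAD genes, 4 were higher in melanocytes, 4 were higher in the stem cells and 3 were not called (median log2 fold change -0.25). All tested genes were called at 29.1% toward melanocytes and 26.2% toward the stem cells. Acvrl1, a type I receptor gene of endothelial cells, stood at 21.1 and 24.4 CPM in the stem cells and 6.49, 2.48 and 2.14 CPM in melanocytes (-2.61 ± 0.49 SE, edgeR adjusted p = 0.00544). Smad4, the common partner, stood at 149 and 162 CPM in the stem cells and 103 to 113 CPM in melanocytes (-0.55 ± 0.10, adjusted p = 0.00567), and lost its call without stem cell replicate 2 (adjusted p = 0.0517). Acvr2a, a type II receptor gene, stood at 76.7 and 69.2 CPM in the stem cells and 46.7 to 53.0 CPM in melanocytes (-0.52 ± 0.11, adjusted p = 0.00886), and lost its call without stem cell replicate 1 (adjusted p = 0.0721). When either quiescent library was left out, the calls toward melanocytes and some of those toward the stem cells were lost. Smad5, the other gene higher in the stem cells, lost its call in both of these fits (log2 fold change -0.71 without stem cell replicate 1 and -0.67 without stem cell replicate 2). Fewer of all tested genes were called as well. All 8 called genes kept their direction. For those higher in melanocytes, log2 fold changes without stem cell replicate 1 were 0.52 (Acvr1), 0.53 (Bmpr2), 0.43 (Smad1) and 3.43 (Bmpr1b). Without stem cell replicate 2 they were 0.42, 0.32, 0.49 and 4.45. Bmpr1b stood at 0.567 CPM or less in every library, with counts of 1 and 4 in stem cell replicates 1 and 2. Without melanocyte replicate 2, Bmpr1b was not tested and 5 of the other genes were called, 1 higher in melanocytes and 4 in the stem cells. In that fit 8248 of 16352 tested genes were called, against 9385 of 16953 with all libraries.

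Other targets of BMP and SMAD signaling were mostly higher in melanocytes. Of 12 such genes, 8 were higher in melanocytes, 1, Hey1, was higher in the stem cells and 3 were not called (median 1.84), against 29.1% of all tested genes called toward melanocytes and 26.2% toward the stem cells. Of the Id family Id1 was called in that direction and Id3 and Id4 in the other. Msx2, a homeobox gene, stood at 5.71 and 3.07 CPM in the stem cells and 213, 238 and 202 CPM in melanocytes (log2 fold change 5.64 ± 0.33 SE, edgeR adjusted p = 9.21e-05). Its relative Msx1 stood at 1.54 and 0.429 CPM in the stem cells and 84.4, 79.9 and 116 CPM in melanocytes (6.64 ± 0.61, adjusted p = 0.000393). Smad7, which encodes an inhibitory SMAD, stood at 23.1 and 25.6 CPM in the stem cells and 69.2, 75.4 and 88.4 CPM in melanocytes (1.67 ± 0.15, adjusted p = 0.000334). Msx2 is also a gene of the hair matrix, whose markers were at 16.1 to 41.9 CPM in the stem cells and 3153 to 4771 CPM in melanocytes. The part of those cells in these differences was not tested.

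**Figure D3:**
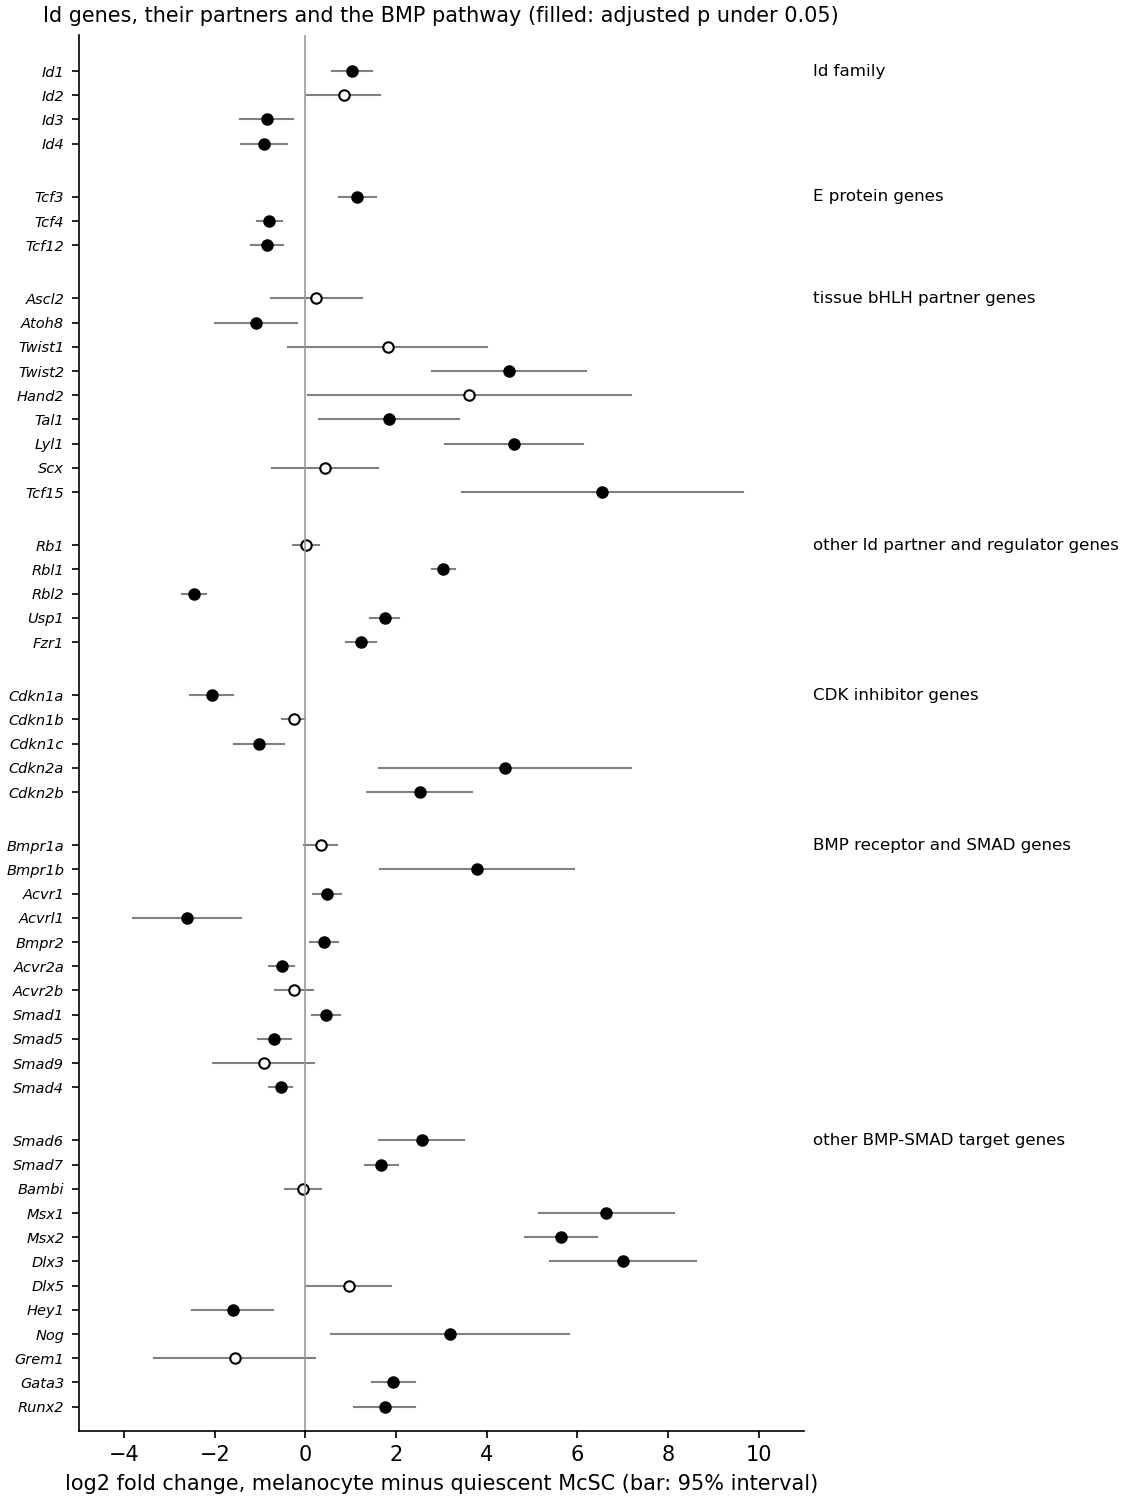
Log2 fold change, melanocyte minus quiescent McSC (x axis), of Id1 to Id4 and of the tested members of 6 lists of Id partners and BMP pathway genes (y axis), with 95% intervals as bars. Filled points passed the test (adjusted p under 0.05); the Id family, the E protein genes and the BMP receptor and SMAD genes lie on both sides of 0, while 8 of 12 other target genes were called to the right. The value of Tcf15, which had no count in the stem cells, depends on the prior count of the fit.

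**Figure D4:**
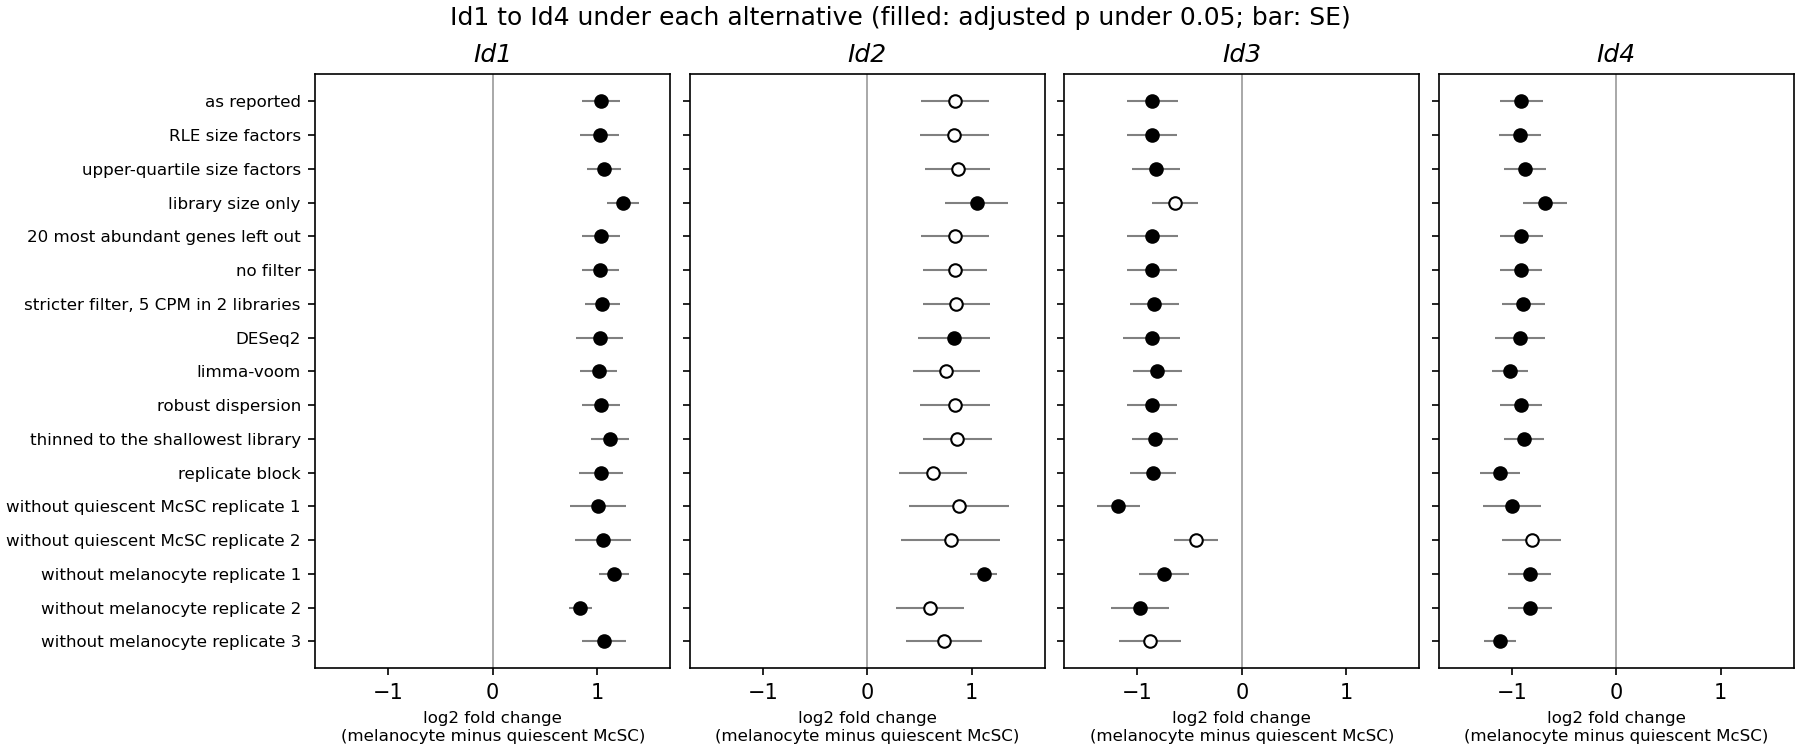
Log2 fold change, melanocyte minus quiescent McSC (x axis), of Id1 to Id4 as reported and under 16 alternatives (y axis), with the SE as bars and filled points for an adjusted p under 0.05. No value crosses 0; Id1 is filled throughout, and Id3 is nearest to 0 without stem cell replicate 2 (-0.44).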

How the data were processed

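Whole-number counts per gene and library were used as deposited by the authors, one column per library and not normalized. The submitters' processing notes name STAR 2.5.2a, Salmon 0.8.2 and the build mm10, with no roles. Which program counted the reads, and on which annotation, is not given in the sources used here. Libraries were poly-A selected and non-stranded, per the labels. Of 24100 Entrez identifiers, 24045 matched a RefSeq symbol (GRCm38.p6). Genes were filtered with filterByExpr, scaled with TMM and tested over all 5 libraries by quasi-likelihood in edgeR 4.0.16 (R 4.3.3), two-sided, without covariates, with Benjamini-Hochberg adjustment over 16953 genes and a threshold of 0.05. The procedure was tested on simulated counts. SEs derive from the fold change and F statistic. CPM are TMM-scaled. Within-library ratios used a pseudocount of 0.5. Lengths and exons come from GENCODE M21; the principal transcript is the shortest with a principal and a consensus coding tag. Reads lack molecular identifiers and are not independent molecules, so counting errors and floors cover counting alone.

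The members, the 6 pathway lists and the marker lists were chosen with earlier results of these data known. The naming rule took Id1 to Id4, all E protein genes, up to 3 members with the smallest p in each other pathway list, and the 3 genes most alike to each Id gene. Other members are named to spell out small counts. Alternatives were other size factors, library size only, the 20 most abundant genes left out, no filter or a stricter one, DESeq2 1.42.0, limma-voom (limma 3.58.1), robust dispersion, thinning to the shallowest library, a replicate block and leaving out each library. In fits with 1 quiescent McSC library, that library is assumed to vary as the melanocyte libraries do.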

Additional observations from a re-analysis of the deposited data

How the results depend on the processing

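No Id gene changed direction in any of the 16 alternatives run. Id1 was called in all 16. Id2 was also called with library size only (log2 fold change 1.05, adjusted p = 0.0277) and with DESeq2 (0.83, adjusted p = 0.0331). Leaving out each library gave 0.60 to 1.12 for Id2, -1.18 to -0.44 for Id3 and -1.11 to -0.81 for Id4. With library size only Id3 was not called (-0.64, adjusted p = 0.0505). Under that setting the median over all tested genes was 0.26 in place of 0.03, and 63.7% of calls were higher in melanocytes. The Id1 to Id3 ratio ranged from 1.49 to 2.19 without 1 library. Leaving out each melanocyte library gave 2 to 4 called tissue bHLH genes, 3 or 4 kinase inhibitor genes and 5 to 7 BMP receptor and SMAD genes. Over all tested genes 8248 to 10005 were called in these fits. Some low genes, Bmpr1b and Cdkn2a among them, were not tested without melanocyte replicate 1 or 2. The tissue bHLH genes numbered 0 with the stricter filter, which left few of them to test, and 2 after thinning. Beyond this the cause was not tested.

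The replicate numbers 1 and 2 occur in both groups, but the labels do not say that they pair libraries. The deviations of same-numbered libraries from their group means correlated at 0.04 and -0.06. With 2 quiescent libraries the deviations of these are mirror images, so the coefficients cannot decide whether libraries pair. A block for the replicate number left 7412 genes called, against 9385. Replicate number 3 occurs only in melanocytes, so under the block that library does not enter the group difference. Less is then left to estimate the spread. The Id values under the block were 1.04, 0.63, -0.85 and -1.12 with no call changed, and 4 BMP receptor and SMAD genes were called in place of 8 (1 higher in melanocytes and 3 in the stem cells, in place of 4 and 4).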
